A study of Mus musculus with 6 samples.

Results

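Genes of the lysosome were followed in 6 tumors of 4T1, a transplantable mammary carcinoma line of the mouse that the labels class as triple-negative breast cancer. The set holds 38 genes, out of 23508 in the count table, that encode soluble hydrolases, their activators, lysosomal membrane proteins and a regulator; cathepsins and the proton pump were left out. Members were listed by gene symbol and chosen with earlier results of these libraries known, among them the differences in Lipa and Creg1 between the groups. Differences between the groups are therefore given as descriptions, and no p-value of a member is given. All 38 genes had a row and all 38 passed the filter on low counts.

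The study recorded neural activity in breast tumors. In 3 tumors, collected earlier, that activity had not reached its first peak, and the other 3 were collected on the day it did. They are called before-peak and with-peak tumors 1 to 3 by their replicate number. Both groups are the same 4T1 tumor tissue, and the labels name no host strain, genotype, treatment or tumor age for either, so later collection and neural peak cannot be told apart. Each library is whole tumor tissue, holding both carcinoma and host cells, in which fewer cells of a type and less RNA per cell cannot be told apart. The carcinoma keratins were abundant, with Krt8 at 1057 to 1712 CPM (read counts scaled to library size, here by the trimmed mean of M-values, TMM) over the 6 tumors. Total counts ran from 10591067 to 14549357 per library.

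Lysosomes are acidic organelles in which hydrolases take apart lipids, glycans and proteins delivered by endocytosis, phagocytosis and autophagy. Most of the soluble enzymes travel there on mannose 6-phosphate receptors, some sphingolipid enzymes need small activator proteins to reach their lipids, and membrane glycoproteins line the organelle. The transcription factor TFEB and its relatives of the MiT family bind an E-box element shared by many lysosomal promoters. Macrophages are rich in lysosomes because they digest what they engulf, and carcinoma cells use them too.

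Promoter sequences are shown first because many lysosomal promoters share the E-box element, though most members here lacked it in the windows searched. RefSeq promoters (build GRCm38.p6, 250 bases before to 50 after each start) were found for 35 of the 38 members, 41 promoters in all. The palindrome CACGTG, the core of the TFEB element, was present for 9 of these 35 members, or 25.7%, in any of their promoters. Counted by gene in the same way, the share was 11.2% of 11393 tested genes with a promoter and 8.09% of all 27025 genes with a promoter. Counted by promoter, it was 7.15% of all 32851 promoters. All 14 sites had a T before the palindrome or an A after it, as in the TFEB element. This longer motif, TCACGTG on either strand, which contains the palindrome, was again present for 25.7% of members. It was present for 6.61% of tested genes and 4.29% of all genes with a promoter and, counted by promoter, in 3.77% of all promoters. All 14 sites lay upstream of the RefSeq start, 11 of them within 75 bases of it.

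Lamp1 held 4 sites, the most of any member, at -61, -45, -28 and -15 from the start. The 100 bases before its start are printed 5′ to 3′ on the strand of the gene, as are the sequences after it, with the palindrome in capitals.
Lamp1 chr8:13159061-13159160 (+): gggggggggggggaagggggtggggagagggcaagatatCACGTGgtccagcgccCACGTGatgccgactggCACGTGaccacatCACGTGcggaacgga
For the other 8 members with a site, up to 30 bases around each site are printed, in the order in which the genes are named here: Mcoln1, Naglu, Lgmn, Gla, Glb1, Arsa, Sgsh and Gaa. Mcoln1 and Gla held 2 sites each, and that of Lgmn lies in the second of its 2 RefSeq promoters. In the GENCODE M21 annotation, both Gla windows lie in an exon of the neighbouring gene Hnrnph2, and those of Naglu, Sgsh, Mcoln1 and Arsa overlap annotated exon of the gene itself, by 27 bases for Naglu, 15 for Sgsh, 9 and 30 for Mcoln1 and 1 for Arsa.
Mcoln1 chr8:3500436-3500465 (+): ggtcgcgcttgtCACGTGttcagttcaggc
Mcoln1 chr8:3500462-3500491 (+): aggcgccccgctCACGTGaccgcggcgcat
Naglu chr11:101070009-101070038 (+): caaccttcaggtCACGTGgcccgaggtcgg
Lgmn chr12:102439124-102439153 (-): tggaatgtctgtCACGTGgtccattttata
Gla chrX:134601215-134601244 (-): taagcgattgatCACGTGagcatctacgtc
Gla chrX:134601182-134601211 (-): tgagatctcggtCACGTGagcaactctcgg
Glb1 chr9:114401018-114401047 (+): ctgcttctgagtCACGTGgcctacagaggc
Arsa chr15:89477425-89477452 (-): tcaactcagtgtCACGTGttgtctgctc
Sgsh chr11:119355522-119355551 (-): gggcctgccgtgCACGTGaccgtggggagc
Gaa chr11:119267811-119267840 (+): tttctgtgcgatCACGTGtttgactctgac
Creg1 and Lipa, the members with the largest log2 fold changes, held no CACGTG in these windows. Their upstream bases are printed for comparison; capitals in Lipa mark GAGGAAG, a motif like those bound by PU.1, an ETS factor of macrophages.
Creg1 chr1:165763508-165763745 (+): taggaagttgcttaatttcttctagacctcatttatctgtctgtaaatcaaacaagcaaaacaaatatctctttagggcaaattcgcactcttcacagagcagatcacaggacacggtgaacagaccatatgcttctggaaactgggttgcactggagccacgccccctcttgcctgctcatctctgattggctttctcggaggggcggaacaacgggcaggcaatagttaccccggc
Lipa chr19:34527475-34527724 (-): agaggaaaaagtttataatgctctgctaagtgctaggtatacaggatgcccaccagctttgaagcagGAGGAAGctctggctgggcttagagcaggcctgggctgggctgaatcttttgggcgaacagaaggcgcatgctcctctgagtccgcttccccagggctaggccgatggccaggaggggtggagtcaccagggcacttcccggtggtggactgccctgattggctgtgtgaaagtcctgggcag
GAGGAAG, searched on both strands, was present for 7 of 35 members (20%) against 16.4% of tested genes and 15.4% of all genes with a promoter. Counted by promoter, it was present in 13.6% of all promoters. The 7 are Lipa, Laptm5, Cd63, Gla, Gm2a, Gusb and Man2b1, with log2 fold changes from 0.04 for Cd63 to 0.93 for Lipa. The site of Laptm5 reads on the opposite strand within annotated exon of the gene in GENCODE M21.
Laptm5 chr4:130913266-130913295 (+): gcagcctgtggCTTCCTCttttttgttctg

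The presence of the E-box was set beside the difference between the groups, without a test. Among the 9 with a site, the median log2 fold change of with-peak over before-peak tumors was 0.15, with values from -0.09 for Glb1 to 0.73 for Gla. Among the 26 without a site the median was 0.29, from -0.06 for Acp2 to 1.19 for Creg1. Lamp1, with 4 sites, stood at 0.38, and Mcoln1, with 2, at 0.03. A match of letters is no evidence of binding, and its absence from a window of this length says nothing of the factor.

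**Figure D1:**
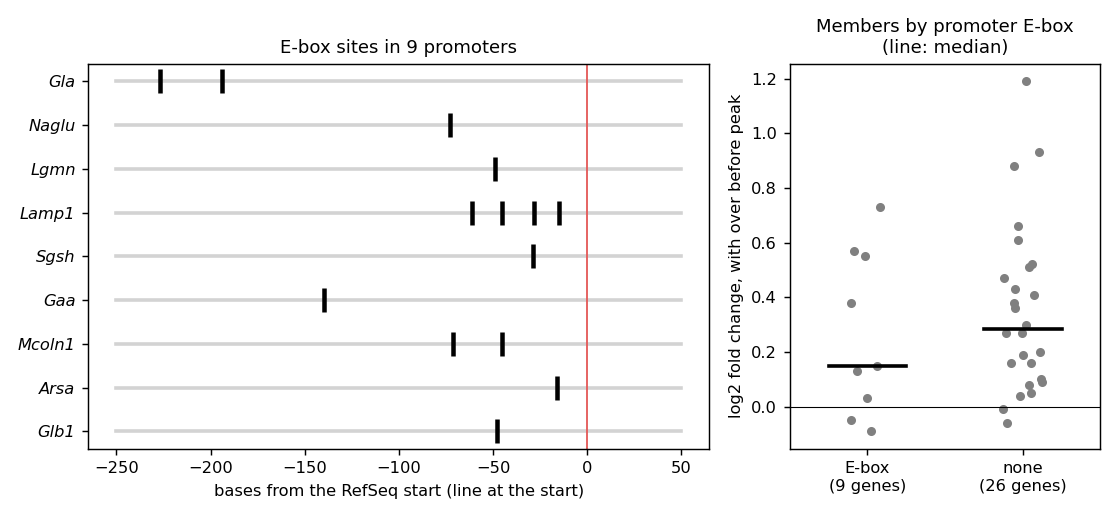
Left, position of each CACGTG site (bar) in bases from the RefSeq start for the 9 members that hold one, from Glb1 at the bottom to Gla at the top by log2 fold change. Right, log2 fold change of with-peak over before-peak tumors for the 9 members with a site and the 26 without (points), with medians of 0.15 and 0.29 (lines).

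Read over the whole set, 34 of 38 members had a positive log2 fold change, where 47.7% of all 16755 genes tested did. The median was 0.24, and that of all genes tested was -0.02. In 15 members every with-peak tumor lay above every before-peak tumor, and in 0 did every one lie below, where the shares over all genes tested were 8.13% and 7.38%. A log2 fold change of at least 0.58, or 1.5-fold, was reached by 6 members and by 8.85% of all genes. Because the members were chosen on this contrast, nothing is read from these counts against the shares of all genes. The edgeR quasi-likelihood test called 0 genes of the whole table higher and 0 lower after Benjamini-Hochberg adjustment, so its share of calls was 0% and 0 members were called. At an unadjusted p under 0.05 it took 15 members, all higher, with 6.12% of all genes higher and 3.38% lower. With library size alone as the scaling, 14 members passed that mark, all higher, beside 4.58% of all genes higher and 6.09% lower. DESeq2 called 8 members, all higher with peak, where it called 1.41% of genes higher and 0.144% lower. They were Creg1, Lipa, Hexa, Gla, Psap, Lgmn, Npc2 and Grn. For the same reason as above, nothing is read from these numbers of members called or passing a p-value.

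The difference was uneven within the set. It was 0.6 or more on the log2 scale for 6 members, between 0.3 and 0.6 for 10, between 0.1 and 0.3 for 12, and within 0.1 of 0 for the remaining 10. The 4 members with a negative value were Glb1, Arsa, Acp2 and Ids, none below -0.09. By role, the medians were 0.25 for the 10 sphingolipid enzymes and activators, 0.16 for the 11 glycan enzymes and 0.47 for the 3 lipid and sterol genes. They were 0.16 for the 5 protease, thioesterase and phosphatase genes, 0.31 for the 6 membrane proteins and 0.51 for Creg1, Grn and Tfeb together. The sphingolipid median falls in a gap between 0.12 for Asah1 and 0.38 for Gm2a. Neu1, a sialidase at 0.41, was placed in that group but could also be placed with the glycan enzymes. The order of the sphingolipid and glycan medians depends on that placement. The lipid and sterol group holds few genes, and no difference between roles was tested.

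**Figure D2:**
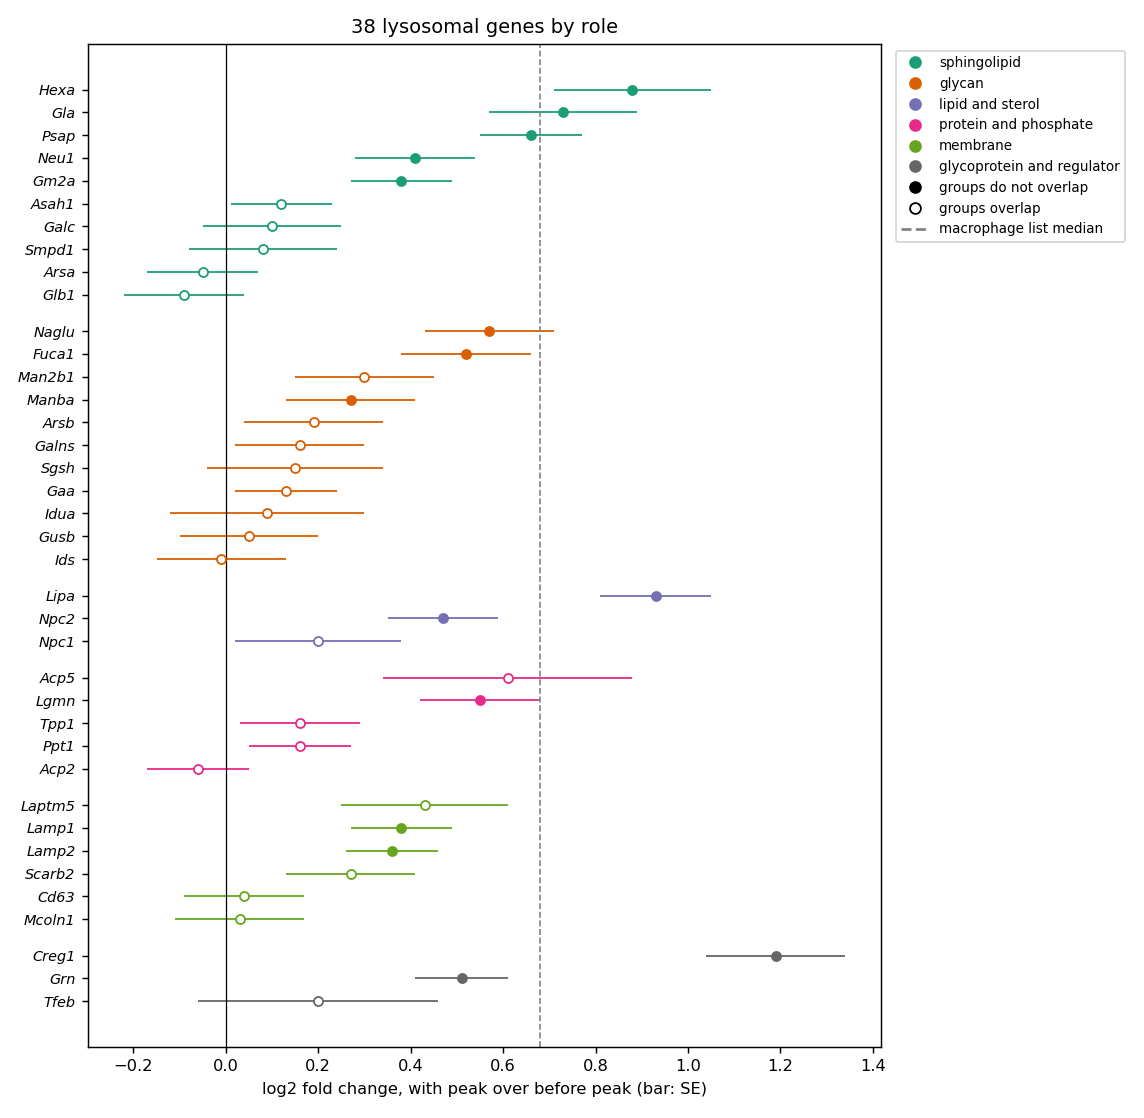
Log2 fold change of with-peak over before-peak tumors for each of the 38 genes (points, bars of 1 SE), grouped by role, with filled points for the 15 genes whose groups do not overlap. The dashed line is the median of the macrophage markers, 0.68, which 4 members exceed.

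Among sphingolipid genes, Hexa and Gm2a, which act together on GM2 ganglioside, were at higher levels with peak. Hexa, the alpha subunit of beta-hexosaminidase (ENSMUSG00000025232, chromosome 9, 59539540 to 59565109), was at 116, 93.1 and 91.3 CPM in before-peak tumors 1, 2 and 3 and at 161, 233 and 160 CPM in with-peak tumors 1, 2 and 3. The groups did not overlap, and with-peak tumor 2 was far above the other with-peak tumors (log2 fold change 0.88, SE 0.17). Hexa shares 255 bases of exon with Tmem202 on the opposite strand, which was itself at 8.99 to 15 CPM before the peak and 21 to 25.7 CPM with it; the libraries carry no strand, so reads there cannot be assigned. Gm2a, the activator that lifts the ganglioside to that enzyme, ranged from 129 to 140 CPM before the peak and from 160 to 193 CPM with it, for a log2 fold change of 0.38 (SE 0.11).

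Psap, the precursor of the saposins that activate several sphingolipid hydrolases (ENSMUSG00000004207, chromosome 10, 60277627 to 60302597), was the most abundant member per length. It was at 1419, 1437 and 1246 CPM before the peak and at 2161, 2341 and 1974 CPM with it, so the lowest with-peak tumor lay well above the highest before-peak tumor (log2 fold change 0.66, SE 0.11). Psap alone made up 20.9% to 23.1% of the summed CPM of the 38 members in before-peak tumors and 25.5% to 26.3% in with-peak tumors. Gla, the alpha-galactosidase that trims globosides (chromosome X, 134588149 to 134601125), was at 20.7, 23.5 and 23.2 CPM before the peak and at 44.2, 34.7 and 32.8 CPM with it. Unlike Hexa, Gla was highest in with-peak tumor 1 (log2 fold change 0.73, SE 0.16). Neu1, the lysosomal sialidase, was at 29.8 to 34.8 CPM and 39.4 to 45.7 CPM, again without overlap (log2 fold change 0.41, SE 0.13).

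The other 5 sphingolipid enzymes showed small differences. Glb1, the beta-galactosidase, was at 49.7 to 64.2 CPM before the peak and at 51.4 to 52.1 CPM with it, inside the before-peak range (log2 fold change of -0.09, SE 0.13). Arsa, the sulfatase of sulfatide, Smpd1, the acid sphingomyelinase, Galc, the galactosylceramidase, and Asah1, the acid ceramidase, had log2 fold changes of -0.05, 0.08, 0.10 and 0.12, with SEs of 0.11 to 0.16, and their groups overlapped.

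Among the 11 glycan enzymes, 3 lay higher with peak without overlap, where 8.13% of all genes tested did, and nothing is read from that count. The median of the glycan enzymes, 0.16, was below that of the sphingolipid genes with all 6 tumors, but without with-peak tumor 1 it was 0.30 against 0.25. Naglu, an exoglycosidase of heparan sulfate (chromosome 11, 101070012 to 101077672), was at 28.7, 24.5 and 26.5 CPM before the peak and at 37.4, 45.0 and 36.0 CPM with it, with no overlap (log2 fold change 0.57, SE 0.14). The other members that act on heparan sulfate and related glycosaminoglycans had smaller log2 fold changes, from -0.01 for Ids to 0.19 for Arsb. Ids and Idua, which remove sulfate from and cleave iduronic acid residues, were at -0.01 (SE 0.14) and 0.09 (SE 0.21). Sgsh, the heparan N-sulfatase, was at 0.15 (SE 0.19), and its exons share 955 bases with Card14 on the opposite strand. Gusb, the beta-glucuronidase and the most abundant glycan enzyme per length, was at 122, 92.4 and 102 CPM before the peak and at 97.2, 130 and 99.4 CPM with it. These values interleave (log2 fold change 0.05, SE 0.15). Arsb and Galns, sulfatases of dermatan and keratan sulfate, had log2 fold changes of 0.19 and 0.16.

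Of the enzymes that trim glycoproteins, Fuca1, the alpha-fucosidase, was at 57.4, 45.2 and 58.7 CPM before the peak and at 81.8, 83.2 and 66.3 CPM with it, with every with-peak tumor above every before-peak tumor (log2 fold change 0.52, SE 0.14). Man2b1, the alpha-mannosidase, was at 141, 121 and 166 CPM and then 152, 201 and 173 CPM, with overlap (log2 fold change 0.30, SE 0.15). Manba, the beta-mannosidase, did not overlap but lay close, at 24.2 to 26.4 CPM and 28.3 to 34.2 CPM (log2 fold change 0.27, SE 0.14). Gaa, which digests glycogen, had a log2 fold change of 0.13 (SE 0.11).

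The lipid and sterol genes act in sequence, and the first step differed most. Lipa, the acid lipase that frees cholesterol and fatty acids from esters taken up by the cell (ENSMUSG00000024781, chromosome 19, 34492318 to 34527474), was at 41.2, 38.7 and 43.7 CPM before the peak and at 80.1, 86.1 and 69.8 CPM with it. The before-peak tumors were closely grouped, at 41.2 ± 2.53 CPM (SD, n = 3), and the with-peak tumors, at 78.7 ± 8.24 CPM (SD, n = 3), were 1.91-fold higher (log2 fold change 0.93, SE 0.12). Npc2, the soluble protein that takes up the freed cholesterol, was at 587, 600 and 470 CPM and then 814, 743 and 735 CPM, without overlap (log2 fold change 0.47, SE 0.12). Npc1, the membrane protein to which NPC2 hands cholesterol for export, was at 32.9, 33.3 and 47.7 CPM and then 39.3, 51.2 and 40.5 CPM. Before-peak tumor 3 was among the highest for this gene, and the groups overlapped (log2 fold change 0.20, SE 0.18, and 0.40 without that tumor). Npc1 shares 511 bases of exon with Rmc1 on the opposite strand.

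Lgmn, the asparaginyl endopeptidase that matures cathepsins (chromosome 12, 102394084 to 102439813), was at 440, 385 and 417 CPM before the peak and at 559, 712 and 549 CPM with it. The groups were apart, with with-peak tumor 2 the highest (log2 fold change 0.55, SE 0.13). Tpp1, a tripeptidyl peptidase, was at 73.4, 64.1 and 80.7 CPM and then 75.4, 88.9 and 80.1 CPM, and Ppt1, a thioesterase that removes palmitate from proteins, at 101 to 112 CPM and then 108 to 131 CPM, each with a log2 fold change of 0.16 and with overlap. Acp2, a lysosomal acid phosphatase, was at 59.0 to 65.7 CPM and 58.0 to 61.4 CPM (log2 fold change -0.06).

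Acp5, the tartrate-resistant acid phosphatase of osteoclasts and some macrophages (chromosome 9, 22126727 to 22135711), was the least even member with peak. It was at 79.9, 101 and 76.4 CPM before the peak and at 135, 176 and 80.7 CPM with it, so with-peak tumor 3 lay among the before-peak tumors and the other with-peak tumors above all of them (log2 fold change 0.61, SE 0.27, and 0.33 without with-peak tumor 2). Its coefficient of variation with peak, 36.5%, was the highest of the 38, whose median was 10.7%. The 5 osteoclast markers in the table summed to 44.7, 72.9 and 52.2 CPM before the peak and to 182, 252 and 82.9 CPM with it, highest in the same tumors. Most of that sum is Ctsk, at 38.8 to 60.3 CPM and then 163, 226 and 76.8 CPM, a protease that fibroblasts and macrophages also make. Of the more restricted markers, Atp6v0d2, a proton pump subunit of osteoclasts and some macrophages, was at 1.84, 4.53 and 0.915 CPM before the peak and at 8.96, 15.2 and 3.39 CPM with it, in the same order of tumors as Acp5. Oscar was at 0.24, 0 and 0 CPM and then 0.28, 1.95 and 0.678 CPM, without overlap but at few reads. Ocstamp, at 2.91 to 6.88 CPM and 1.65 to 8.54 CPM, and Dcstamp, which did not exceed 2.27 CPM, overlapped between the groups. The overlapping gene 6530413G14Rik on the opposite strand, which shares 137 bases of exon with Acp5, was at 22.7 to 52.8 CPM and was also highest in with-peak tumor 2. The part of these genes in the Acp5 values was not tested.

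**Figure D3:**
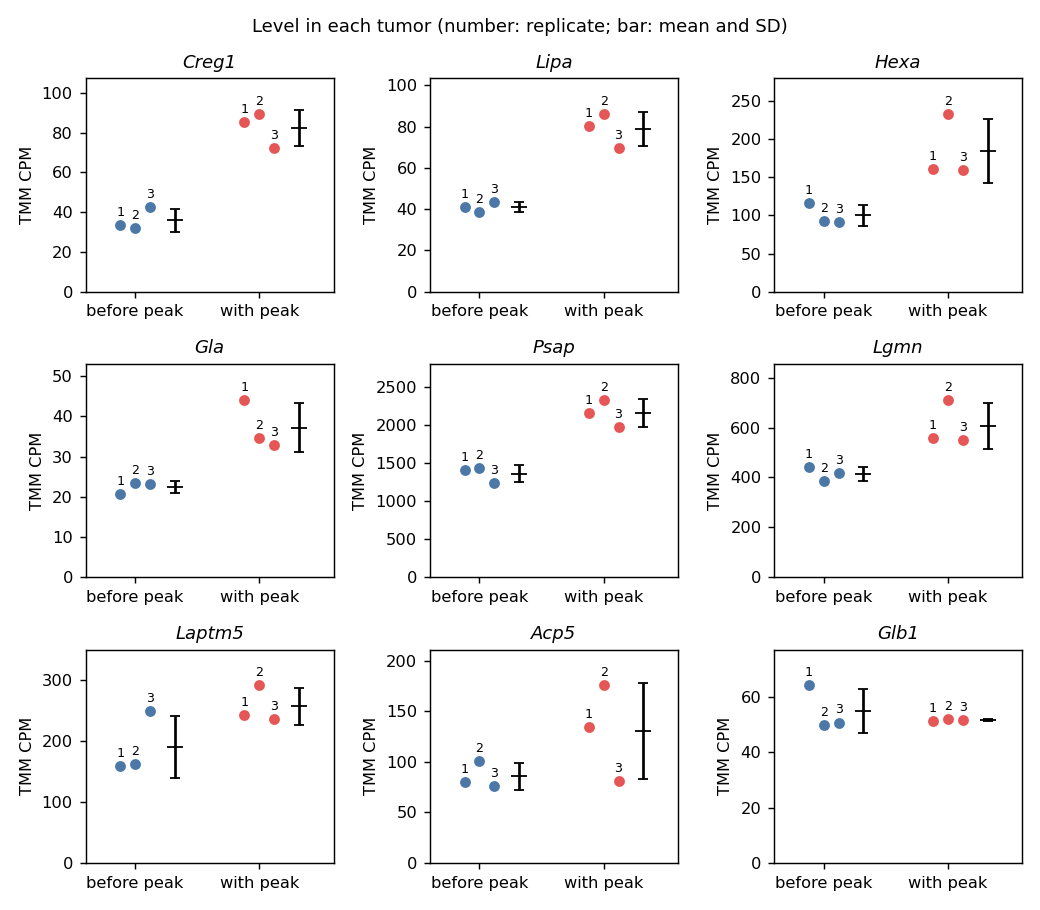
TMM-scaled CPM of 9 members in each tumor (points numbered by replicate, linear axes from 0), with mean and SD of 3 tumors per group. Creg1, Lipa, Hexa, Gla, Psap and Lgmn show no overlap of the groups, while Laptm5 overlaps through before-peak tumor 3, Acp5 through with-peak tumor 3, and Glb1 throughout.

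The 6 membrane proteins all had positive log2 fold changes, from 0.03 for Mcoln1 to 0.43 for Laptm5. Lamp1, the main glycoprotein of the lysosomal coat (chromosome 8, 13159161 to 13175338), was at 554, 495 and 510 CPM before the peak and at 614, 723 and 696 CPM in with-peak tumors, a log2 fold change of 0.38 (SE 0.11). Lamp2, its relative with a part in autophagy, was at 282, 295 and 296 CPM and then 383, 384 and 352 CPM (log2 fold change 0.36, SE 0.10). For both genes every with-peak tumor was above every before-peak tumor. Lamp1 shares 249 bases of exon with Grtp1 on the opposite strand, a gene at 147 to 246 CPM in these libraries. Cd63, a tetraspanin of late endosomes and exosomes and nearly as abundant per length as Lamp1, was at 599 to 764 CPM and then 620 to 770 CPM, with the same spread in both groups (log2 fold change 0.04, SE 0.13). Mcoln1, the calcium channel of the lysosomal membrane, was at 29.2 to 38.3 CPM and 33.2 to 34.5 CPM (log2 fold change 0.03, SE 0.14), and Scarb2, an integral protein of the lysosomal membrane, had a log2 fold change of 0.27 (SE 0.14) with overlap.

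Laptm5, a lysosomal membrane protein of blood-derived cells (chromosome 4, 130913125 to 130936141), was at 159, 163 and 250 CPM before the peak and at 243, 292 and 237 CPM with it. Before-peak tumor 3 lay within the with-peak range, which made Laptm5 the most variable member before the peak, with a coefficient of variation of 27% against a median of 8.44% (log2 fold change 0.43, SE 0.18, and 0.68 without that tumor). That tumor also held the most lymphocyte transcripts. Its 6 B and plasma cell markers summed to 369 CPM against 3.75 to 73.1 CPM in the other 5 tumors, and its 9 T and NK cell markers to 166 CPM against 16.7 to 83.4 CPM. Lymphocytes express Laptm5 as well as macrophages do, and their part in its values was not tested.

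Creg1, a secreted and lysosomal glycoprotein (ENSMUSG00000040713, chromosome 1, 165763746 to 165775308), had the largest difference of the 38. It was at 33.7, 31.8 and 42.6 CPM before the peak and at 85.4, 89.3 and 72.0 CPM with it, 2.28-fold higher (log2 fold change 1.19, SE 0.15). Grn, progranulin, which is cut into granulins in the lysosome and binds prosaposin, was at 392, 354 and 343 CPM and then 510, 543 and 500 CPM. These groups were tight and apart (log2 fold change 0.51, SE 0.10). Grn shares 68 bases of exon with Fam171a2 on the opposite strand.

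Tfeb itself was a rare transcript, at 13.6, 10.6 and 17.8 CPM before the peak and at 14.3, 21 and 13.1 CPM with it, from as few as 135 reads in a library. The groups interleaved (log2 fold change 0.20, SE 0.26), and without with-peak tumor 2 the value was -0.04. Among the other MiT factors, Tfe3 was at 60.4 to 69.2 CPM and 64.1 to 85.8 CPM (log2 fold change 0.18, SE 0.13) and Tfec at 10.2 to 11.6 CPM and 11.9 to 19.4 CPM (log2 fold change 0.46, SE 0.23). Mitf, which is active in macrophages, osteoclasts and mast cells as well as pigment cells, was at 8.65, 9.45 and 7.57 CPM before the peak and at 16.0, 21.8 and 18.9 CPM with it. Its groups were well apart (log2 fold change 1.14, SE 0.21).

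Levels between genes were compared per kilobase of exon. They spanned from 642 CPM per kb for Psap, averaged over the 6 tumors, to 2.56 CPM per kb for Galc. After Psap came Lamp1 (224), Lgmn (220), Cd63 (189), Grn (127) and Npc2 (121), all in CPM per kb. At the low end, next to Galc, were Tfeb (2.66), Idua (3.53) and Npc1 (3.61). The median member was at 18.6 CPM per kb against 5.47 for all tested genes with an annotated length, and 32 of 38 members lay above that. Differences were seen across this range: Lipa and Gla, at 8.84 and 9.14 CPM per kb, had larger log2 fold changes than Lamp1 or Cd63.

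**Figure D4:**
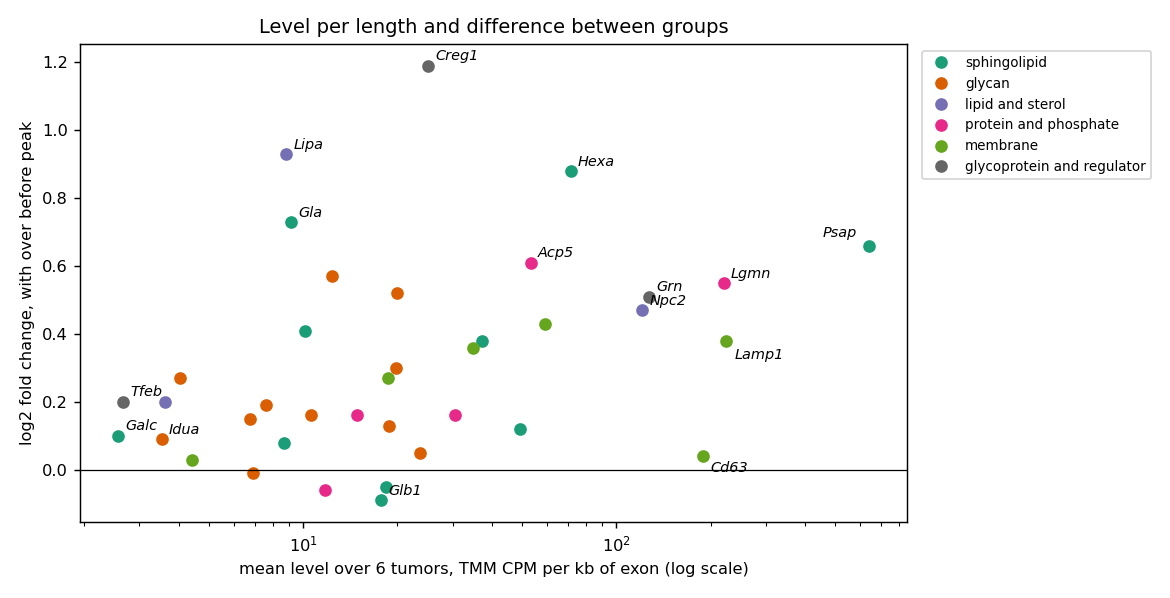
Log2 fold change of with-peak over before-peak tumors against mean level in TMM CPM per kb of exon (log axis) for the 38 genes, colored by role. Psap is the most abundant at 642 CPM per kb with a log2 fold change of 0.66, while Cd63, at 189 CPM per kb, is at 0.04.

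Of 50 further genes for hydrolases, transporters and sorting factors, 49 had a row and 47 were tested. Their median log2 fold change was 0.13, with 35 positive and 12 negative; 18 lay higher without overlap and 2 lower, where 8.13% and 7.38% of all genes did. The edgeR test called 0 of them, as of all genes. At an unadjusted p under 0.05 it took 16 higher and 2 lower (6.12% and 3.38% of all genes), and DESeq2 called 6, all higher (1.41% of all genes). This list, too, was chosen with earlier results known, and nothing is read from these counts. Within this list, which does not hold the MiT factors, the largest values were those of Gpnmb, a glycoprotein of lipid-laden macrophages (2.62, SE 0.50), Hpse, the endoglycosidase of heparan sulfate (1.27, SE 0.17), and Arsg, a sulfatase of heparan sulfate (1.02, SE 0.45, with overlap). Gpnmb was at 1.25 to 3.20 CPM before the peak and 6.65 to 18.2 CPM with it, from 15 reads in its lowest library. Igf2r and M6pr, the mannose 6-phosphate receptors that sort the hydrolases, had log2 fold changes of -0.35 (SE 0.14) and 0.13 (SE 0.10), Igf2r being one of the 2 genes lower without overlap.

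The summed level of the 38 members followed the tumors. It was 6425, 6218 and 5966 CPM in before-peak tumors 1, 2 and 3, and 8213, 9010 and 7731 CPM in with-peak tumors 1, 2 and 3. With Psap left out it was 4720 to 5006 CPM and 5757 to 6669 CPM, so the groups were apart in either sum. With-peak tumor 2 held the highest value for 25 of the 38 members, with-peak tumor 1 for 8 and with-peak tumor 3 for 0, while the lowest value was in before-peak tumor 2 for 17 and in before-peak tumor 3 for 12. By role, the sums of sphingolipid genes were 1852 to 2108 CPM and 2720 to 3188 CPM, those of glycan enzymes 527 to 619 CPM and 638 to 762 CPM, and those of lipid and sterol genes 562 to 672 CPM and 846 to 934 CPM. A sum is ruled by its most abundant gene, Psap in the first and Npc2 in the last.

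Macrophage and monocyte markers were also higher with peak. All 20 log2 fold changes were above 0, where 47.7% of all genes tested were, and their median was 0.68. In 12 of the 20 the groups did not overlap, where 8.13% of all genes lay higher without overlap. Mrc1 and Msr1, at 0.07 and 0.18, were among those that overlapped. The marker lists, too, were chosen with earlier results known, and nothing is read from counts of markers against the shares of all genes. The marker sum was 4163, 2656 and 3323 CPM before the peak and 4831, 6641 and 5145 CPM with it. With-peak tumor 2 was again the highest, but the before-peak tumors ranked otherwise than in the members' sum. Lyz2, the lysozyme gene, made up the largest part. Only Creg1, Lipa, Hexa and Gla, of the 38 members, had a log2 fold change above 0.68. The members' sum and these 4 genes were also set against the macrophage sum. The 4 were picked for log2 fold changes above the marker median, so higher values with peak on this scale are in part built in. The other members were not placed on it individually, and nothing is read from it. The ratio of the members' sum to that of the markers was 1.54, 2.34 and 1.80 before the peak and 1.70, 1.36 and 1.5 with it, with overlap. Lipa amounted to 0.991, 1.46 and 1.32 CPM per 100 CPM of macrophage markers before the peak and 1.66, 1.30 and 1.36 with it, and these values overlap. Creg1 per 100 CPM of the same markers was at 0.810, 1.2 and 1.28 before the peak and at 1.77, 1.34 and 1.40 with it, where the groups do not overlap but the gap is small. Hexa, at 2.75 to 3.50 and 3.11 to 3.50, and Gla, at 0.496 to 0.886 and 0.523 to 0.914, overlapped on this scale. Lyz2 was 26.2% to 45.3% of the marker sum and had the largest log2 fold change of the 20 markers, 0.95. Leaving it out, a choice made after seeing the data, ended the overlap for Lipa and Hexa. Over the other 19 markers, Lipa was at 1.61, 1.97 and 2.02 CPM per 100 CPM before the peak and at 2.60, 2.12 and 2.48 with it. On that scale Hexa was at 4.22 to 4.75 before the peak and at 5.23 to 5.72 with it, and Creg1 at 1.32 to 1.97 and 2.20 to 2.77. Gla, at 0.807 to 1.2 and 0.854 to 1.43, still overlapped, as did the ratio of the sums, at 2.51 to 3.17 and 2.22 to 2.75. Cd68, one of the 20 markers, is itself a lysosomal membrane glycoprotein and also one of the 50 further lysosomal genes. The part of macrophage number in the members' values was not tested.

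**Figure D5:**
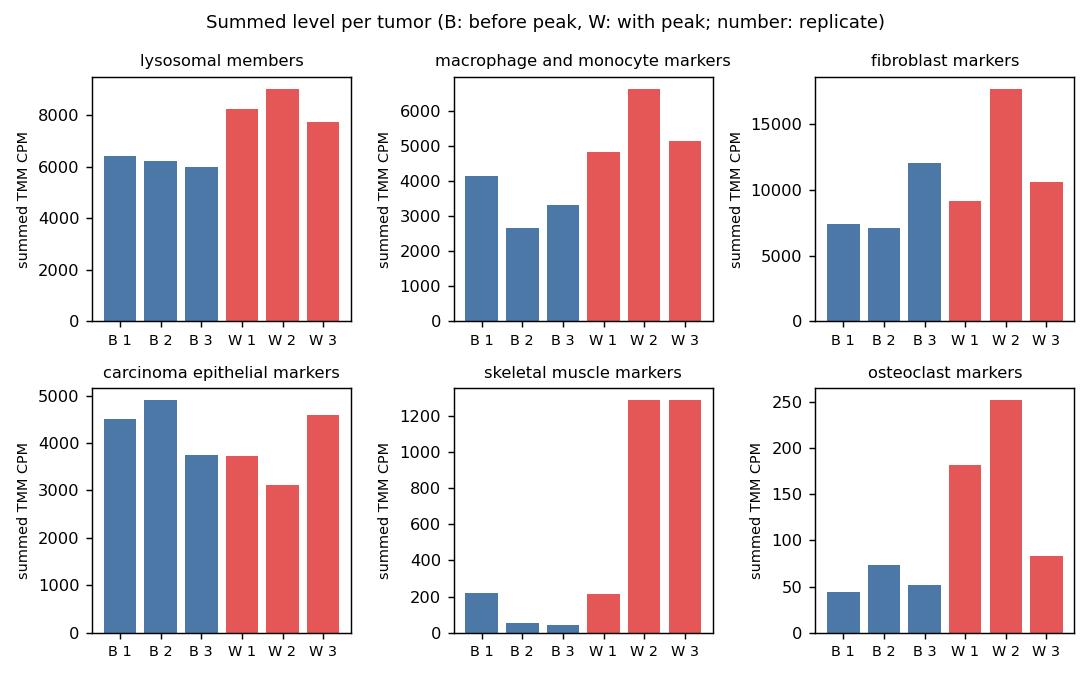
Summed TMM CPM per tumor (bars from 0, each panel on its own scale; B before peak, W with peak, numbered by replicate) of the 38 lysosomal genes and of markers for 5 cell types. The lysosomal sum is 5966 to 6425 CPM before the peak and 7731 to 9010 CPM with it, and the muscle sum is high in with-peak tumors 2 and 3 alone.

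Other cell types also differed between tumors. Fibroblast markers summed to 7131 to 12054 CPM before the peak and 9159 to 17683 CPM with it, with overlap. Their sum was highest in with-peak tumor 2, and 9 of the 10 had a positive log2 fold change. Carcinoma epithelial markers summed to 3753 to 4903 CPM and 3107 to 4584 CPM, also with overlap, with 8 of 10 negative. Neutrophil markers, at 401 to 919 CPM and 530 to 752 CPM, endothelial markers, at 290 to 414 CPM and 268 to 594 CPM, and adipocyte markers, at 476 to 1129 CPM and 597 to 1761 CPM, overlapped between the groups. Skeletal muscle markers were at 1287 and 1286 CPM in with-peak tumors 2 and 3, against 212 CPM in with-peak tumor 1 and 41.5 to 221 CPM before the peak, and erythroid markers were at 1301 and 1999 CPM in the same pair against 118 to 263 CPM elsewhere. With-peak tumor 1, which is low in muscle and blood transcripts, lay above every before-peak tumor for 24 of the 38 members, where 25.7% of all tested genes did. For with-peak tumors 2 and 3 this held for 29 and 19 members, with 29.6% and 24.5% of all tested genes. Fitted with with-peak tumor 1 alone, a choice made after seeing the data, the median of the members was 0.23. The members were chosen on this contrast, so nothing is read from these counts or from that median. The part of muscle and blood in the members' values was not tested. Mitochondrial rRNA, a sign of library quality, took 0.0313% to 0.0456% of counts before the peak and 0.0587% to 0.0655% with it, and its part was not tested.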

How the data were processed

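Transcripts of 6 mouse tumors were counted by RNA sequencing. Per the labels' protocols, tissue was frozen at dissection, RNA was taken up in Trizol, and polyadenylated RNA gave paired-end reads that carry no strand. The authors deposited a table of unnormalized counts, 1 per gene and tumor. The submitters' processing notes name FastQC, STAR and mm10. Which read counter and annotation made the counts is not given in the sources used here. Of 23508 Ensembl identifiers, 23479 matched GENCODE M21 (GRCm38, the assembly of mm10), which gave symbols, coordinates and union exon lengths. RefSeq promoters were matched by symbol.

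Counts were fitted with edgeR 4.0.16 in R 4.3.3: filterByExpr (minimum count 10, total 15; 16755 genes kept), TMM scaling and the robust quasi-likelihood test, with Benjamini-Hochberg adjustment over all genes and a threshold of 0.05. SE is the size of the log2 fold change divided by the square root of F. DESeq2 1.42.0 and limma-voom (limma 3.58.1) were alternatives, with other scalings and filters, a replicate block and each library left out. The edgeR procedure was tested on simulated data. A list sum adds the TMM CPM of its genes in the table, and ranges run over 3 tumors.

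The members and lists were chosen with earlier results of these data known. Tumors are named by the replicate number in the labels, which do not say whether they came from separate animals, so errors measure only the spread between these samples. Chi-square per degree of freedom between libraries of the same group was 17.1 to 28.9, and none was treated as a duplicate. Same-numbered tumors did not deviate together, so no pairing was used. Full values are given for Lipa, Creg1, Psap, Laptm5, Tfeb and, in each role group, for the 3 members with the largest absolute log2 fold change and the most abundant per length; other members are given by range or fold change, and Igf2r and M6pr, outside the rule, were chosen after their values were seen. Members had 135 to 30878 counts per library, and only Idua and Tfeb had fewer than 200 in any of them.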

Additional observations from a re-analysis of the deposited data

How the results depend on the processing

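Over all alternatives run with at least 2 tumors per group, 30 to 35 of 38 members had a positive log2 fold change. An unadjusted p under 0.05 was reached by 14 to 18. Of all genes tested in the main edgeR fit, 47.7% had a positive value, and 6.12% passed that p higher and 3.38% lower. With library size alone these last shares were 4.58% and 6.09%. Shares over all genes are not given for the other alternatives, and nothing is read from these ranges. The number of members called, 0 by edgeR, was 8 with DESeq2 (of 260 genes called). Without a filter on low counts it was 2 (Creg1 and Lipa, of 29 genes called among 23503). At an adjusted p under 0.1 edgeR called 3 members, but no total over all genes is given beside it, so nothing is read from it. With 1 library left out, 0 to 1 members were called. Creg1 was called without before-peak tumor 3, of 13 genes. Without before-peak tumor 2, 17 genes were called, and without with-peak tumor 1, 9 genes, with 0 members among either. The cause was not tested. The median of the members, 0.24, was 0.17 to 0.33 with 1 library left out and 0.37 with 2 against 2 tumors, without both numbered 3. That fit and the one with with-peak tumor 1 alone were chosen after seeing the data; in the latter the lone tumor is assumed to vary like the others, and the membrane median was 0.21 against 0.31. Leaving out with-peak tumor 1 gave the highest glycan median and with-peak tumor 2 the lowest membrane median; with 1 library left out, medians ran from 0.13 to 0.30 for glycan enzymes and from 0.22 to 0.37 for membrane proteins. The labels state no pairing; deviations of same-numbered tumors correlated at -0.06, -0.10 and 0.03. With the replicate number as a block, 0 members were called and the median was 0.24. With 1 library left out, Tfeb ran from -0.04 to 0.41 and Gusb from -0.10 to 0.17, so both turned in sign.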
